A study of Homo sapiens with 12 samples.

Results

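Y15 changed gene expression differently in 2 papillary thyroid cancer cell lines, TPC1 and BCPAP, and the size of that difference was measured gene by gene. Y15 (1,2,4,5-benzenetetraamine tetrahydrochloride) is a small molecule inhibitor of focal adhesion kinase (FAK). The 8 bead arrays compared were chosen by their labels from the 12 of the series. They were 2 arrays of TPC1 cells with 10 µM Y15 for 24 hours, 2 of untreated TPC1 cells, 2 of BCPAP cells with the same treatment and 2 of untreated BCPAP cells. The other 4 arrays were of K1, another line, and did not enter the fit. TPC1 cells carry a RET/PTC1 rearrangement and BCPAP cells carry BRAF and p53 mutations, and both were kept in RPMI medium with serum. The labels give no vehicle for the untreated cells. Each line is a single established line, and nothing states that its arrays came from separate cultures, so the p-values measure only the spread between these samples.

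FAK, encoded by PTK2, is a cytoplasmic tyrosine kinase that gathers at integrin adhesions and passes signals from the matrix to SRC, the MAPK pathway and the actin cytoskeleton. Cell tension at adhesions also governs the coactivators YAP and TAZ, which act with TEAD factors on genes such as CCN2 and ANKRD1. p53 is a transcription factor that raises the cell cycle inhibitor CDKN1A after stress, and interferons raise antiviral genes through their receptors. In thyroid cancer FAK is known for its role in adhesion and invasion.

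The measure throughout is the log2 signal of a gene's brightest probe after quantile normalization. The response of a line is its Y15 mean minus its untreated mean. The difference between the lines is the response of TPC1 minus that of BCPAP, so a positive value means a higher response in TPC1. Mean signal ran from 215 to 368 per array, and 16004 to 20376 of 47311 probes were above background, at a detection p under 0.05. Untreated BCPAP replicate 2 was lowest in both, and the 2 arrays of a group correlated across genes with r from 0.993 to 0.998. KRT8, KRT18, PAX8, FOXE1 and HHEX were above background in all 4 groups. TG and SLC5A5 were above background in none of the 4, and NKX2-1 and EPCAM in BCPAP but not TPC1. KRT19 and CDH1 were above background in none. No endothelial marker of PECAM1, VWF, CDH5 and KDR was above background on both arrays of a group, and among leukocyte markers only CD68 was.

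Of 11935 genes tested with limma, 3352 responded differently in the 2 lines at a Benjamini-Hochberg adjusted p under 0.05, the threshold for every gene called here. The response was higher in TPC1 for 1569 genes (13.1%) and lower in TPC1 for 1783 (14.9%). Within TPC1, 2353 genes rose with Y15 (19.7%) and 2453 fell (20.6%). Within BCPAP, 1676 rose (14%) and 1578 fell (13.2%). Of the genes called in both lines, 1548 moved the same way and 270 moved opposite ways. The opposite movers split into 131 that rose in TPC1 and fell in BCPAP (1.1%) and 139 that fell in TPC1 and rose in BCPAP (1.16%). A further 1747 genes with a called difference had moved in TPC1 alone and 690 in BCPAP alone, 443 had moved the same way by unequal amounts, and 202 were called in neither line. The difference was at least 2-fold for 290 genes and 0 of the 270 opposite movers changed by 2-fold in both lines.

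The split into higher and lower depended on the scaling. Quantile normalization gives each array one distribution of signal, and the median difference over all genes tested was -0.02. With median centring over all probes that median was -0.57 and 47 genes were called higher and 3349 lower. With median centring over the probes above background on all 8 arrays it was 0.24, with 3113 higher and 1010 lower. With median centring over the genes tested it was 0.12, with 2617 higher and 1558 lower. No gene called by quantile normalization and by any of these 3 was called in the opposite direction, but many calls were not shared. Of the 3352 differences called by quantile normalization, 1708, 1789 and 1781 were also called with the 3 centrings, in that order. Of its 270 opposite movers 33, 93 and 100 were opposite movers there too. Among the 71 genes chosen by a rule of size and named below, 9 took the other sign with centring over all probes, none of them then called: TNC, SC5D, PSMD1, CALR, FERMT2, PTTG1, BCL2L2, H2BC12 and PTK2, which was not called before either. Another 17 kept their sign and were not called under it: CCN2, NAV2, STOM, ITGA2, ADAMTS1, SPRED2, H2BC21, CDKN1A, GADD45A, FOSB, TXNRD1, HBEGF, HSPA1B, PSMB7, RGS4, SFRP1 and CPA4. The values below are from quantile normalization and are relative to the typical gene of an array.

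**Figure D1:**
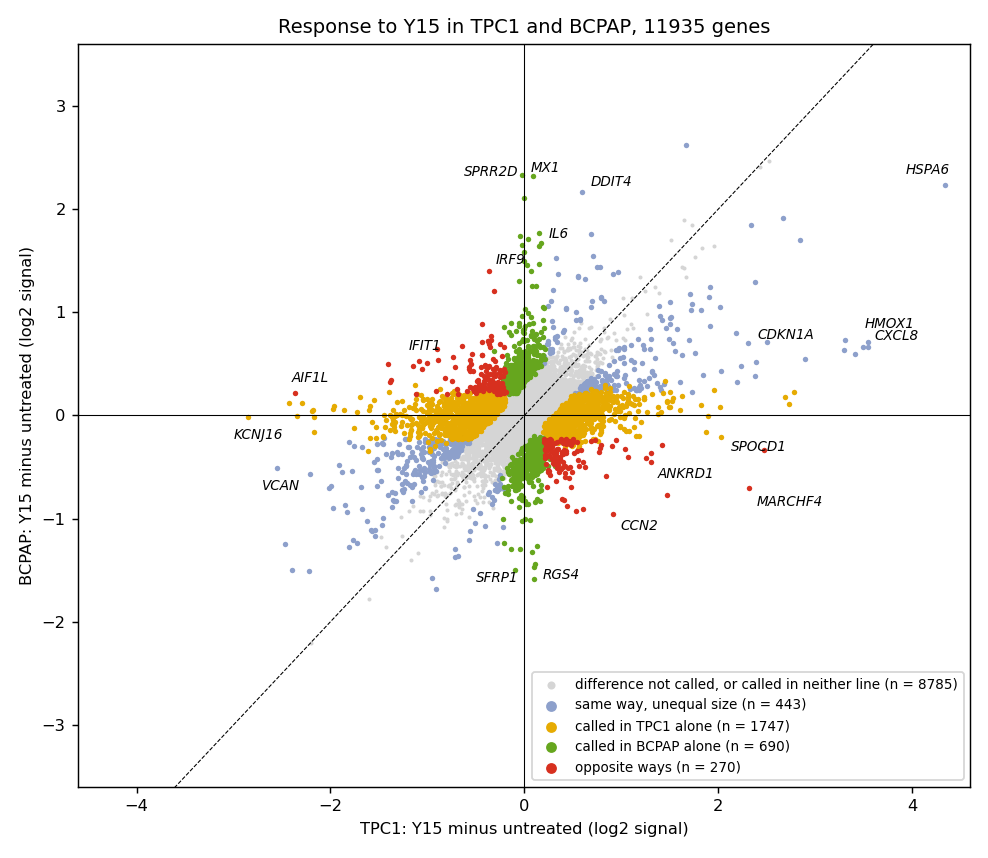
Response to Y15 in TPC1 (horizontal axis) and in BCPAP (vertical axis), as Y15 minus untreated in log2 signal, for 11935 genes (points), coloured by the class of the difference, with equal responses on the dashed line. Most called genes lie along one of the axes, moved in 1 line alone, and the 270 opposite movers fill the upper left and lower right.

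The target itself was not among the genes that differed. PTK2 had log2 signals of 11.15 and 11.01 with Y15 in TPC1, against 11.23 and 11.12 untreated, and of 9.82 and 9.87 with Y15 in BCPAP, against 10.29 and 10.05 untreated. It fell in BCPAP by 0.33 (adjusted p = 0.0173 from limma), and its response in TPC1 was -0.10. A second probe had a BCPAP response of -0.09, not called (adjusted p = 0.469). The difference was 0.23 ± 0.13 (SE, adjusted p = 0.203). Without untreated BCPAP replicate 2 it was 0.35 and called (adjusted p = 0.0411), and with centring over all probes it was -0.78 and not called. Of 19 genes of FAK and its adhesion partners, 3 were higher and 2 lower in the difference, near the 13.1% and 14.9% of all genes. With centring over all probes 0 were higher and 6 lower, against 47 and 3349 of all 11935 genes. TNS3, a tensin that ties integrins to actin, fell by 1.91 in TPC1 and by 0.48 in BCPAP, where its untreated signal was 1.86 above the floor of the array. FERMT2, a kindlin that activates integrins, fell in BCPAP alone (-0.41, against 0.14 in TPC1).

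Among the genes that rose in TPC1 and fell in BCPAP, MARCHF4, a membrane-bound ubiquitin ligase, differed most. Its log2 signals were 9.49 and 9.54 with Y15 in TPC1, against 7.24 and 7.16 untreated, and 9.08 and 9.26 with Y15 in BCPAP, against 9.83 and 9.92 untreated. The 2 treatments did not overlap in either line, a condition for being named that all 270 opposite movers met. Y15 brought TPC1 cells near the level of BCPAP cells. The responses were 2.32 in TPC1 and -0.70 in BCPAP, a difference of 3.02 ± 0.12 (SE, adjusted p = 1.06e-08 from limma). NAV2, a neuron navigator protein that binds the cytoskeleton, had responses of 1.47 and -0.77, and its 2 other probes gave 0.64 and -0.62, and 0.48 and -0.17.

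CCN2, a matricellular growth factor and a standard YAP and TEAD target, stood at 11.88 and 11.78 with Y15 in TPC1, against 11.11 and 10.73 untreated. In BCPAP it stood at 10.21 and 10.48 with Y15, against 11.39 and 11.21 untreated. The untreated lines were nearer each other than the treated ones, with responses of 0.91 in TPC1 and -0.95 in BCPAP (difference 1.86 ± 0.17 SE, adjusted p = 6.14e-06 from limma). A second probe gave 0.96 and -0.90. With median centring over all probes the CCN2 difference was 0.87 and was not called (adjusted p = 0.173). ANKRD1, a muscle ankyrin repeat protein of the same target group, had 8.04 and 8.03 with Y15 in TPC1, against 6.75 and 6.71 untreated, where it was not above background. It was at least 2.27-fold higher with Y15 in TPC1 and had a response of -0.45 in BCPAP. Without untreated BCPAP replicate 2 the BCPAP response was -0.22 and not called (adjusted p = 0.0881).

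Of 18 YAP and TEAD targets tested, 7 were higher and 3 lower in the difference, against 13.1% higher and 14.9% lower over all genes, and CCN2 and ANKRD1 were the 2 opposite movers. With centring over all probes 1 was higher and 5 lower, against 47 and 3349 of all 11935 genes. The median difference of the list was 0.02, against -0.02 over all genes. CCN1 rose in TPC1 (0.70, against -0.16 in BCPAP), and IGFBP3 was lower by 2.41. The promoter of CCN2 is shown for its repeats of the TEAD motif GGAATG, in capitals, as the 120 bases before the RefSeq start of transcription on GRCh38.p14 (chr6:131951373-131951492, minus strand), printed 5′ to 3′.
CCN2: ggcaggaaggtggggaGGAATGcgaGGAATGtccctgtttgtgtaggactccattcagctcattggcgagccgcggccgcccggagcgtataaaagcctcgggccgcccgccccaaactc
The repeats begin 104 and 95 bases before the start, and a further match lies at 169 bases. ANKRD1 had matches at 220 and 128 bases. On either strand, 14.3% of the 27305 genes with a promoter in the table held the motif within 250 bases before a start, as did 8 of 13 YAP and TEAD targets. These are letter matches in a list of known targets and not measured sites.

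Several other named genes rose in TPC1 and fell in BCPAP. STOM, a membrane scaffold, had responses of 1.31 and -0.37 (0.40 and -0.28 by a second probe), and ITGA2, the collagen receptor integrin alpha 2, of 1.04 and -0.33. ADAMTS1, a secreted protease of proteoglycans, had responses of 0.84 and -0.59, and TNC, a matrix glycoprotein, of 0.40 and -0.50. A second TNC probe gave 0.15, not called (adjusted p = 0.193), and -0.27. CFAP251, a ciliary protein, had 1.42 and -0.29. SPRED2, an inhibitor of the MAPK pathway, had 0.56 and -0.49. The BCPAP call of STOM was lost with each of the median centrings and with neqc background correction, while its rise in TPC1 was lost with centring over all probes alone (adjusted p = 0.0618).

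**Figure D2:**
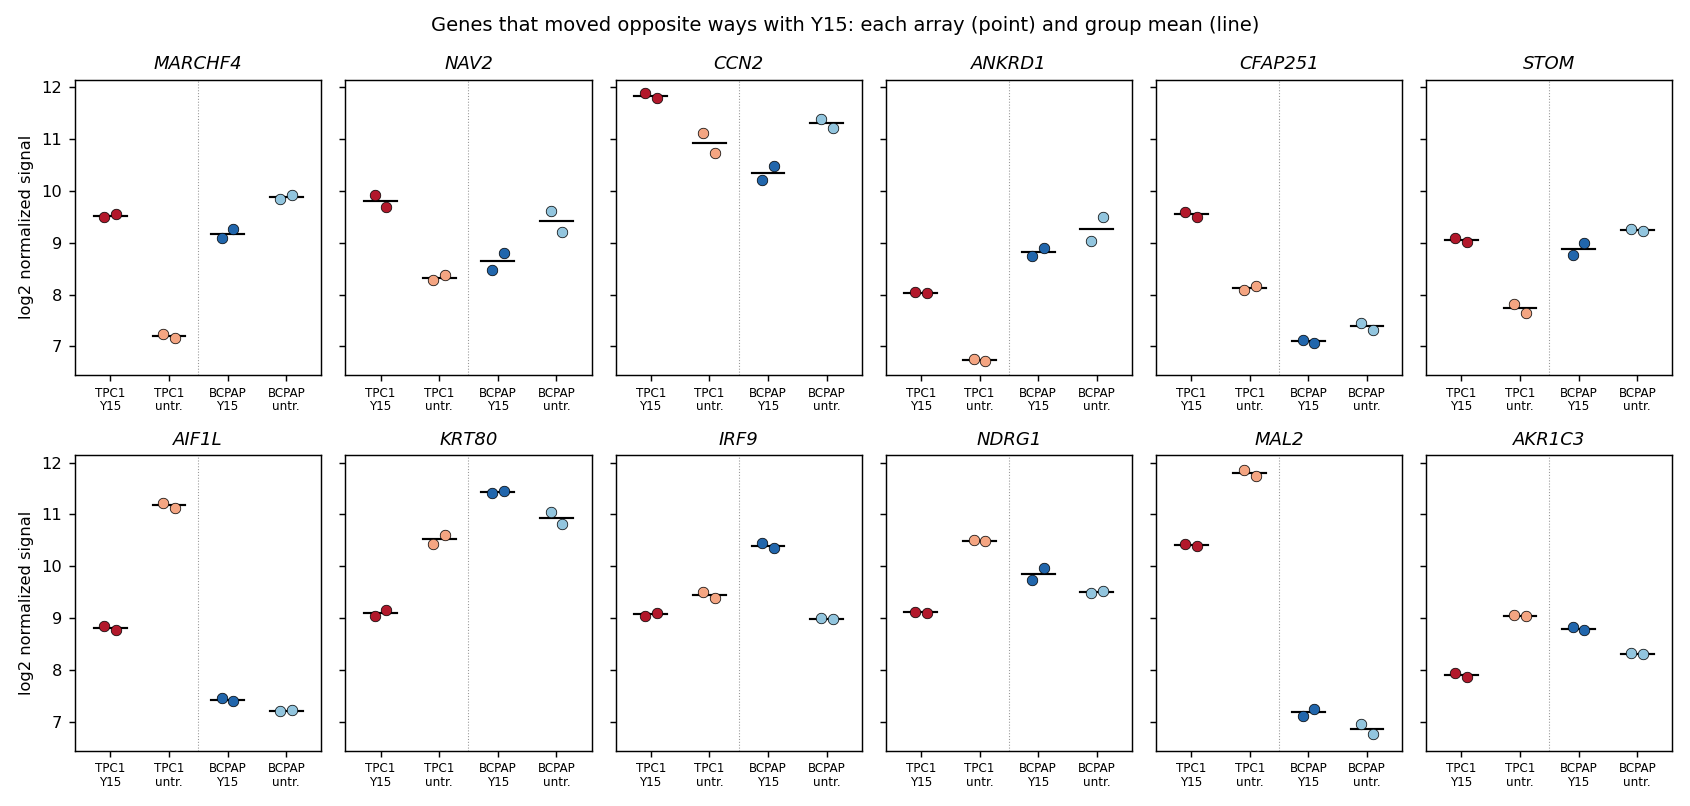
Log2 normalized signal on each array (points) and group mean (lines) for 12 genes that moved opposite ways, with TPC1 left and BCPAP right of the dotted line and Y15 left of untreated. The upper row rose in TPC1 and fell in BCPAP, the lower row the reverse, and the responses were larger in TPC1 for most.

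Among the genes that fell in TPC1 and rose in BCPAP, AIF1L, an actin-binding protein, differed most. It had 8.85 and 8.78 with Y15 in TPC1, against 11.23 and 11.13 untreated, and 7.47 and 7.40 with Y15 in BCPAP, against 7.21 and 7.22 untreated. The fall in TPC1 was 2.36 and the rise in BCPAP 0.22, close to the threshold (adjusted p = 0.0462). That rise was not called without untreated BCPAP replicate 2 (adjusted p = 0.0773) or with any of the 3 median centrings, and a second probe gave a BCPAP response of 0.02. AIF1L thus fell in TPC1 on each scale while its movement in BCPAP rests on the scaling. MAL2, a protein of apical transport, was alike, with responses of -1.39 and 0.32, the second one not called without that array (adjusted p = 0.0931).

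KRT80, a type II keratin, rose by more in BCPAP than AIF1L and MAL2 did. It had 9.05 and 9.17 with Y15 in TPC1, against 10.44 and 10.61 untreated, and 11.42 and 11.44 with Y15 in BCPAP, against 11.04 and 10.82 untreated. The responses were -1.41 and 0.50, and a second probe gave -1.24 and 0.70. NDRG1, a gene raised by low oxygen, had responses of -1.38 and 0.34, and ADM, the vasodilator peptide adrenomedullin and also raised by low oxygen, of -0.90 and 0.64. AKR1C3, an aldo-keto reductase that acts on steroids and prostaglandins, had -1.14 and 0.48. With median centring over all probes the rises of KRT80 and NDRG1 in BCPAP were larger, at 1.12 and 0.93, but not called (adjusted p = 0.0704 and 0.0701), and AKR1C3 stayed an opposite mover.

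Interferon-stimulated genes rose mainly in BCPAP. Of 36 tested, 25 were lower in the response of TPC1 and 0 higher, against 14.9% and 13.1% of all genes. The median difference was -0.59, against -0.02 over all genes. In TPC1 5 rose and 5 fell, against 19.7% and 20.6% of all genes, with a median response of -0.01. In BCPAP 28 rose and 1 fell, against 14% and 13.2%, with a median of 0.45. MX1, a dynamin-like antiviral GTPase, had 6.94 and 6.84 with Y15 in TPC1, against 6.95 and 6.87 untreated, which is near the floor of the array. In BCPAP it had 11.06 and 11.27 with Y15, against 8.80 and 8.87 untreated, a response of 2.33 (difference -2.35 ± 0.12 SE, adjusted p = 5.3e-08 from limma). OAS2, which makes oligoadenylates that start RNA decay, had a response of -0.05 in TPC1, where it was not above background, and of 1.74 in BCPAP. The other 3 probes of OAS2 had smaller BCPAP responses, from 0.26 to 0.46, each called, and their differences between the lines were -0.15, -0.35 and -0.41, with adjusted p = 0.336, 0.0547 and 0.0442 from limma.

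Most genes of this list had some signal in TPC1, but a larger share than over all genes had none. There 5 of the 36 were above background on no array, against 424 of the 11935 genes tested. Above background on all 8 arrays were 23 of the 36, against 8482 of the 11935. IFI27, a mitochondrial interferon-induced protein, had 8.90 and 9.0 with Y15 in TPC1, against 8.87 and 8.96 untreated, and 12.36 and 12.42 with Y15 in BCPAP, against 10.68 and 10.68 untreated. Opposite movers numbered 4 in the list. IRF9, the DNA-binding subunit of the interferon-activated factor, had 9.05 and 9.11 with Y15 in TPC1, against 9.50 and 9.39 untreated, and 10.44 and 10.35 with Y15 in BCPAP, against 9.0 and 8.99 untreated. IFIT1, which binds foreign RNA ends, had 7.14 and 7.10 with Y15 in TPC1, against 8.17 and 8.24 untreated, and 8.86 and 8.88 with Y15 in BCPAP, against 8.31 and 8.38 untreated. In both genes the treated lines lay further apart than the untreated ones. PARP14, an ADP-ribosyltransferase, had responses of -0.32 and 0.40, and UBE2L6, a conjugating enzyme for ISG15, of -0.47 and 0.25. ISG15, a ubiquitin-like modifier, rose in both lines (0.56 in TPC1 and 1.35 in BCPAP).

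The count of interferon-stimulated genes lower in TPC1 was 27 with centring over all probes, 19 with centring over probes above background, 21 with centring over the genes tested and 19 with neqc. The 2 middle settings also called 3 higher. Without untreated BCPAP replicate 2 it was 25. Of 15 genes that present antigen by MHC class I, which interferon also raises, 3 were lower in TPC1 and 0 higher, with 10 lower under centring over all probes, 6 under centring over the genes tested and 0 higher under both. Of all 11935 genes tested 14.9% were lower in TPC1, and 3349 and 1558 were lower with those 2 centrings. Centring over probes above background gave 1010 lower and neqc 1387.

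The promoters of 4 of these genes, 2 of them opposite movers, are shown as the 120 bases before a RefSeq start on GRCh38.p14, 5′ to 3′, with matches to the interferon response element, searched as a pair of GAAA with 2 bases of any kind between them, on either strand, in capitals.
IFIT1: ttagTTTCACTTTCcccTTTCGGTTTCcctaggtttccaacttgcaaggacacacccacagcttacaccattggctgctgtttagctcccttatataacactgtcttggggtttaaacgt
PARP14: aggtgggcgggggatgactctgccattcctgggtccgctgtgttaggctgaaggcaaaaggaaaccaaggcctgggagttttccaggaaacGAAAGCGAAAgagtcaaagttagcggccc
IFI27: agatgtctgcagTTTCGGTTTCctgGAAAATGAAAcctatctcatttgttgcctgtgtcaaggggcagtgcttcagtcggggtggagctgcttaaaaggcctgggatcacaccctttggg
ISG15: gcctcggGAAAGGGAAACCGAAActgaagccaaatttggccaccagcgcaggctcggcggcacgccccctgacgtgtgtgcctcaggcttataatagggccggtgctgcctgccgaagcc
The windows lie at chr10:89392503-89392622, chr3:122680719-122680838, chr14:94110616-94110735 (the first of 2 starts) and chr1:1013377-1013496, all on the plus strand. The motif was within 250 bases before a start in 3.71% of all genes and in 22 of 29 interferon-stimulated genes with a promoter in the table. The 22 of these 29 whose difference was called held it in 15 cases. As for the TEAD motif, these are letter matches in a list of known targets and not measured sites. The 2 matches of ISG15 overlap. IFIT1 and IFI27, which moved differently in TPC1, both held 2 matches.

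**Figure D3:**
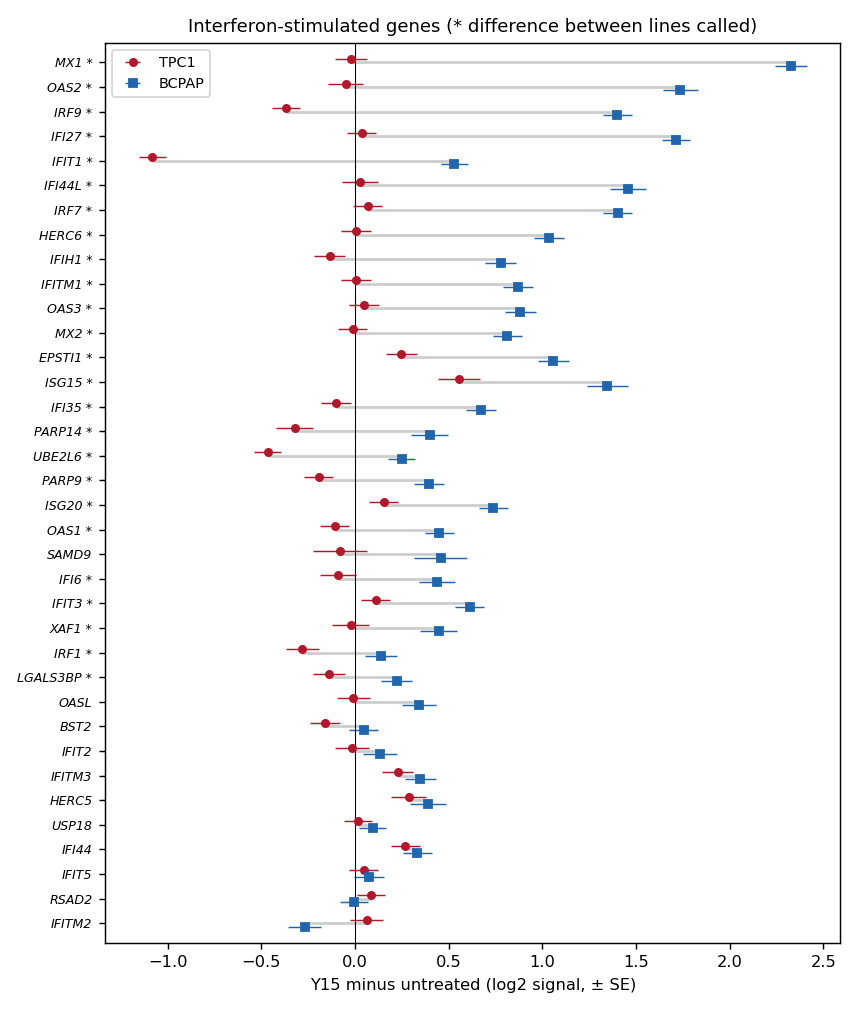
Response to Y15 (log2 signal, ± SE of the fit) of 36 interferon-stimulated genes in TPC1 (circles) and BCPAP (squares), ordered by the difference, with an asterisk where it was called. In TPC1 5 genes rose and 5 fell, IFIT1 furthest, while 28 rose in BCPAP.

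Targets of p53 rose more in TPC1. Of 24 tested, 15 were higher and 2 lower in the response of TPC1 (1 and 3 with centring over all probes), with a median difference of 0.57. The shares over all genes were 13.1% higher and 14.9% lower, and with that centring 47 and 3349 of 11935 genes were. In TPC1 19 rose and 0 fell, against 19.7% and 20.6% of all genes. In BCPAP 13 rose and 2 fell, against 14% and 13.2%. CDKN1A, the cyclin-dependent kinase inhibitor p21, had 13.46 and 13.44 with Y15 in TPC1, against 11.13 and 11.16 untreated, and 10.77 and 10.65 with Y15 in BCPAP, against 9.98 and 10.03 untreated. Both lines rose, by 2.31 and 0.71 (difference 1.60 ± 0.10 SE, adjusted p = 3.14e-07 from limma). A second, dimmer CDKN1A probe gave 0.49 and 0.30, with no difference called (adjusted p = 0.204). GADD45A, a stress gene that slows the cell cycle, rose by 1.84 and 0.39, and its second probe gave 2.10 and 0.71. Several targets rose in TPC1 alone, among them RRM2B, a ribonucleotide reductase subunit (1.14, against -0.02 in BCPAP), AEN, a nuclease of apoptosis (1.27, against 0.03), and MDM2, the ubiquitin ligase of p53 (0.65, against 0.04). MDM2 was above background on no BCPAP array. GDF15, a secreted stress factor, went against the group and rose more in BCPAP (2.62, against 1.67 in TPC1).

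Proteasome subunits were also called in 1 direction, and that rested on the scaling. Of 26 tested, 22 were higher in the response of TPC1 and 0 lower, against 13.1% and 14.9% of all genes. The median difference was 0.48. In TPC1 20 rose and 1 fell, against 19.7% and 20.6% of all genes. In BCPAP 0 rose and 4 fell, against 14% and 13.2%. PSMB7, a catalytic subunit of the core, had 12.22 and 12.25 with Y15 in TPC1, against 10.99 and 11.11 untreated, and 12.56 and 12.40 with Y15 in BCPAP, against 12.33 and 12.40 untreated. PSMD1, a subunit of the regulatory particle, had responses of 0.24 and -0.69. With centring over all probes 0 were higher and 1 lower, against 47 and 3349 of all 11935 genes. With centring over the genes tested 4 were higher, against 2617 of all genes, and the list median was 0.06 above that of all genes. The p53 targets had a list median 0.45 above that of all genes with either of those centrings. Centring shifts every gene by the same amount, so this distance cannot differ between centrings and is no agreement of separate settings. Of the p53 targets only 1 was called higher with centring over all probes and 12 with centring over the genes tested.

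**Figure D4:**
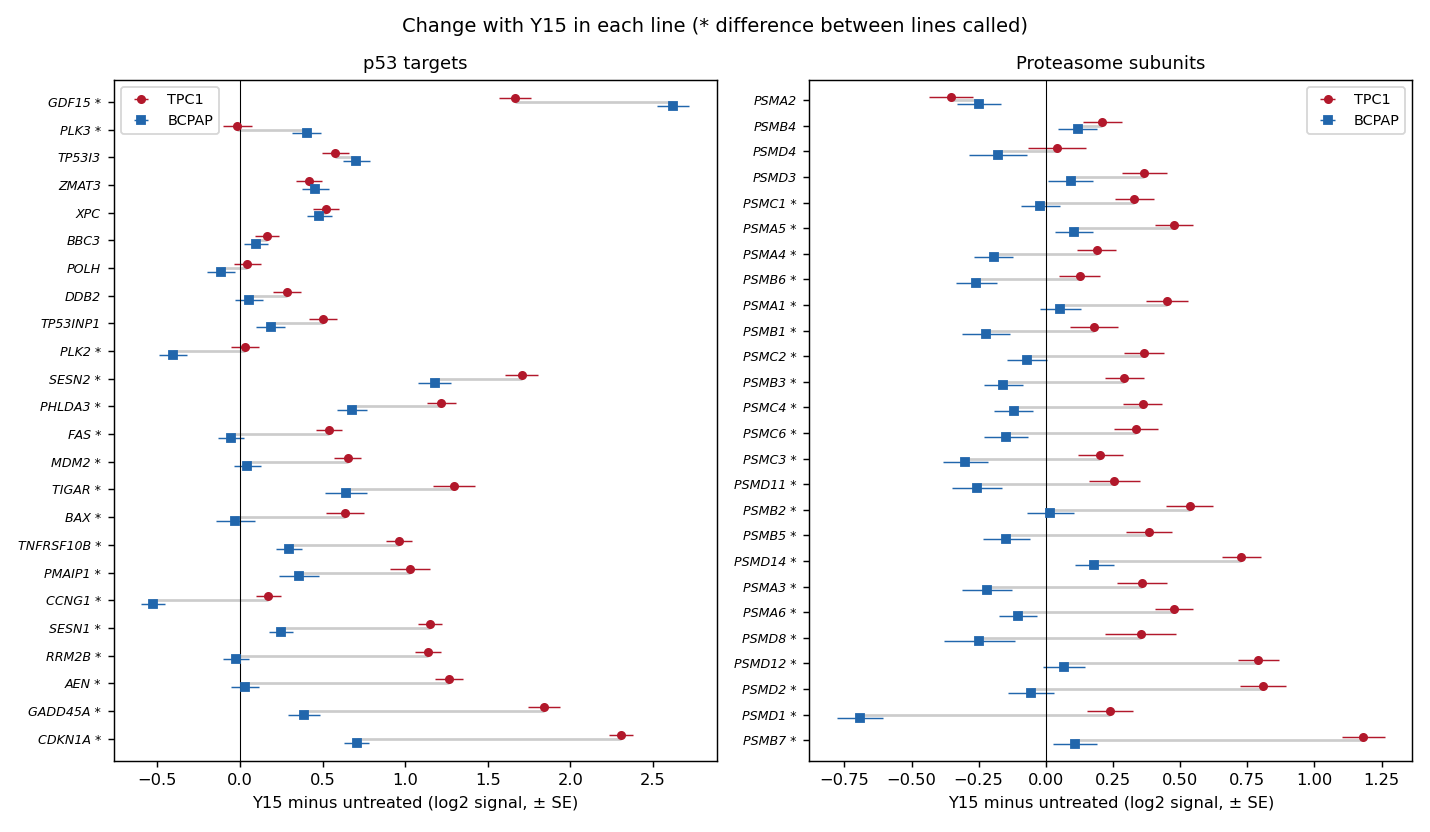
Response to Y15 (log2 signal, ± SE of the fit) in TPC1 (circles) and BCPAP (squares) of 24 p53 targets (left) and 26 proteasome subunits (right), ordered by the difference, with an asterisk where it was called. TPC1 lies right of BCPAP for most genes in both lists, by wider gaps among the p53 targets.

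Small RNA genes had the largest median difference of any list. Of 22 tested, 14 were higher in the response of TPC1 and 0 lower, against 13.1% and 14.9% of all genes. The median was 0.96, and in TPC1 19 rose, against 19.7% of all genes. RNU6-1, a spliceosomal U6 RNA, had responses of 2.47 in TPC1 and -0.34 in BCPAP, RNU1-3, a U1 RNA, of 3.41 and 0.60, and RN7SK, which holds back transcription elongation, of 2.03 and 0.43. SNORD3A, the nucleolar U3 RNA, had 2.69 and 0.18. Near-identical copies of U1, U3 and U6 share probe sequence, so the copy is uncertain. The methods do not state how the labelling copied these RNAs, so the values are probe signals and not measured amounts of RNA. With centring over all probes 11 were higher and 0 lower, against 47 and 3349 of all 11935 genes. The list median was then 0.97 above that of all genes.

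Genes that rose in TPC1 alone numbered 823, of which 35 were above background on no BCPAP array, against 705 of the 11935 genes tested. SPOCD1, which in mice takes part in silencing transposons, rose by 2.03 in TPC1 and had a response of -0.21 in BCPAP. HBEGF, a ligand of the EGF receptor, had 10.24 and 10.35 with Y15 in TPC1, against 8.46 and 8.38 untreated, and 11.86 and 11.97 with Y15 in BCPAP, against 12.07 and 12.08 untreated. Y15 thus left TPC1 below the level of BCPAP, which was high throughout. KLRC1, a lectin-like receptor known from natural killer cells, rose by 1.89 in TPC1 (1.02 by a second probe) and was above background on no BCPAP array. NAV3, a relative of NAV2, rose by 1.82, and H2BC12, a histone H2B, by 0.77.

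Genes that fell in TPC1 alone numbered 924, and for 420 of them BCPAP gave little room for the same fall. A gene was counted as too dim when the untreated BCPAP mean lay above the floor of the array, the lowest signal of any probe above background, by less than the fall in TPC1. Of the 96 with a difference of at least 2-fold, 76 were too dim. By this definition a larger fall is more often too dim, so that higher share is no separate result. Of the 924, 140 were above background on no BCPAP array, against 705 of the 11935 genes tested. The 4 leading genes were all too dim. KCNJ16, a potassium channel subunit, had 7.79 and 7.62 with Y15 in TPC1, against 10.61 and 10.50 untreated, and 6.75 and 6.70 with Y15 in BCPAP, against 6.78 and 6.70 untreated. SLC17A3, an organic anion transporter, fell by 2.35 in TPC1 and was likewise not above background in BCPAP. FLG, filaggrin of the cornified layer, fell by 2.17 and was not above background there either.

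CEBPD, a transcription factor of the acute phase response, fell by 2.43 in TPC1, to 8.95 and 9.02 with Y15, against 11.46 and 11.38 untreated. In BCPAP it was at 8.52 and 8.45 with Y15, against 8.27 and 8.45 untreated, 1.44 above the floor. IGFBP3, which binds insulin-like growth factors, fell by 2.29, and SCD, the stearoyl-CoA desaturase, by 2.17, with BCPAP 1.68 and 1.80 above its floor. The BCPAP responses of these 3 were 0.12, 0.12 and -0.16, none of them called. A fall as large as in TPC1 would have gone below the floor in BCPAP, while a smaller fall had room there.

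Other genes had room to fall in BCPAP. ACSS2, which makes acetyl-CoA from acetate, had 9.14 and 9.01 with Y15 in TPC1, against 10.69 and 10.66 untreated, and 9.16 and 9.21 with Y15 in BCPAP, against 9.16 and 9.10 untreated. It fell by 1.60 in TPC1 with a difference of -1.65 ± 0.11 (SE, adjusted p = 2.9e-07 from limma). Its 2 other probes gave differences of -1.62 and -0.43, both called. JUP, the junction protein plakoglobin, fell by 1.46 and had a response of -0.21 in BCPAP, and its 2 dimmer probes had responses of -0.39 and -0.40 in TPC1 with no difference called. MCM4, a helicase subunit of DNA replication, fell by 0.78, HSPA5, the chief chaperone of the endoplasmic reticulum, by 0.62, GINS2, a replication factor, by 0.48 and INSIG1, which restrains sterol synthesis, by 0.45. ITGB3, integrin beta 3, fell by 0.95 but was too dim in BCPAP.

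**Figure D5:**
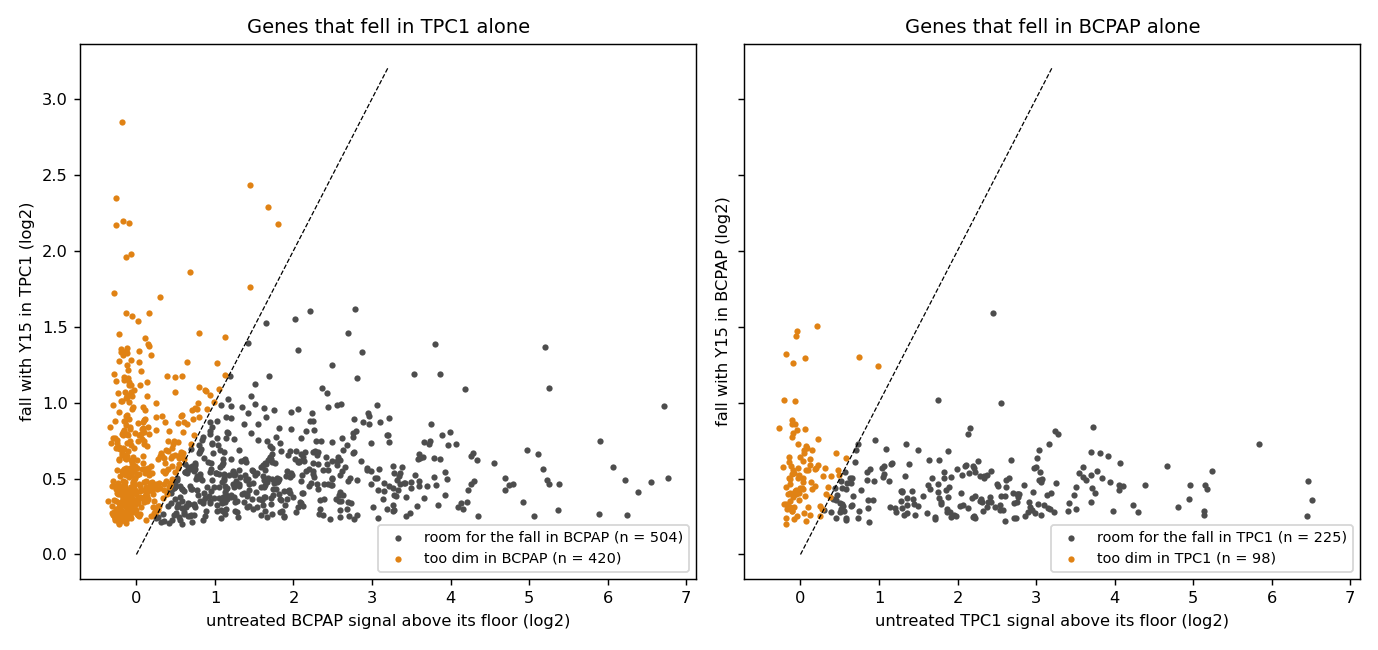
Fall with Y15 (log2, vertical axis) of genes that fell in TPC1 alone (left) or in BCPAP alone (right), against the untreated signal of the other line above its floor (log2, horizontal axis). Points left of the dashed line, where the room equals the fall, were too dim in the other line, 420 of 924 on the left and 98 of 323 on the right.

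In BCPAP alone 367 genes rose, of which 41 were above background on no TPC1 array, against 424 of the 11935 genes tested. Besides MX1 and OAS2, SPRR2D, a small proline-rich protein of the cornified envelope, rose by 2.32, with 9.26 and 9.04 with Y15 in BCPAP, against 6.92 and 6.74 untreated. SUN3, a nuclear envelope protein, rose by 2.11. Both were near the floor in TPC1. IL6, a cytokine of inflammation, and SLC7A5, a transporter of large amino acids, had ample signal there. IL6 had 11.30 and 11.33 with Y15 in TPC1, against 11.24 and 11.08 untreated, and 10.73 and 10.75 with Y15 in BCPAP, against 8.94 and 9.0 untreated. SLC7A5 had 12.20 and 12.13 with Y15 in TPC1, against 12.21 and 12.14 untreated, and 10.51 and 10.61 with Y15 in BCPAP, against 9.0 and 8.95 untreated. For both, BCPAP cells rose toward a level that TPC1 cells had without Y15. MMP3, stromelysin, rose by 1.67 in BCPAP.

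In BCPAP alone 323 genes fell, 98 of them too dim in TPC1. Again larger falls are too dim more often by definition, and of the 11 with a difference of at least 2-fold 10 were. The exception was RGS4, a regulator of G protein signalling, with 9.37 and 9.43 with Y15 in TPC1, against 9.35 and 9.26 untreated, and 7.56 and 7.6 with Y15 in BCPAP, against 9.23 and 9.11 untreated. The untreated lines were alike and BCPAP fell by 1.59. SFRP1, a secreted Wnt antagonist, fell by 1.47 in BCPAP, LRRC17, a leucine-rich repeat protein, by 1.44, and CPA4, a carboxypeptidase, by 1.5, each too dim in TPC1. CALR, the calcium-binding chaperone calreticulin, fell by 0.68 in BCPAP and had room in TPC1.

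Genes that moved the same way included the largest responses. The largest in TPC1 was that of HSPA6, an inducible heat shock protein, which had 10.998 and 11.23 with Y15 in TPC1, against 6.78 and 6.77 untreated, and 9.39 and 9.34 with Y15 in BCPAP, against 7.13 and 7.14 untreated. It was at least 19.2-fold higher with Y15 in TPC1, since the untreated arrays did not rise above background, and 4.71-fold higher in BCPAP. A second HSPA6 probe had smaller responses, 1.82 in TPC1 and 0.47 in BCPAP on the log2 scale, against 4.34 and 2.24 by the first. CXCL8, a neutrophil chemokine, had 13.59 and 13.45 with Y15 in TPC1, against 10.13 and 9.84 untreated, and 12.997 and 13.35 with Y15 in BCPAP, against 12.54 and 12.48 untreated. The treated lines were near each other, and untreated BCPAP cells were above untreated TPC1 cells. HMOX1, which degrades haem, rose by 3.55 in TPC1 and 0.71 in BCPAP, and TXNRD1, a thioredoxin reductase, by 2.38 and 0.38 (1.62 and 0.31 by a second probe). LCP1, an actin-bundling plastin, rose by 2.50 and 0.71, and FOSB, an immediate early transcription factor, by 1.61 and 0.33. VCAN, a matrix proteoglycan, fell by 2.55 and 0.51, with BCPAP 1.45 above its floor before treatment.

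Fewer genes (74) responded the same way but more in BCPAP, against 369 in TPC1. DDIT4, which restrains mTORC1, rose by 0.59 in TPC1 and 2.17 in BCPAP. IL1RL1, the receptor of interleukin 33, rose by 1.52 in BCPAP. In TPC1, where it was above background on neither untreated array, it was at least 1.09-fold higher. A second IL1RL1 probe gave 0.71 in BCPAP and 0.00 in TPC1, not called (adjusted p = 0.994). ALOX5AP, which serves leukotriene synthesis, rose by 0.68 and 1.76. It was not above background in untreated BCPAP cells and was at least 3.02-fold higher there.

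Genes of stress responses and the cell cycle moved in both lines, and many differed in size. Beside the counts below, 13.1% of the 11935 genes tested were higher in the difference and 14.9% lower. With centring over all probes 47 and 3349 were. Within TPC1 19.7% of all genes rose and 20.6% fell, and within BCPAP 14% rose and 13.2% fell. Of 26 genes of the ATF4 stress response, 23 rose in TPC1 and 23 in BCPAP, and the difference was higher for 8 and lower for 7 (0 and 10 with centring over all probes), with a median of 0.05. SLC7A5 and DDIT4 were the members that differed most. Of 30 mitosis genes, 29 fell in TPC1 and 28 in BCPAP, and 17 were lower and 2 higher in the difference. Under the other scalings between 13 and 20 were lower, against 1010 to 3349 of all 11935 genes. TOP2A, a topoisomerase, fell by 1.67 in TPC1 and 0.91 in BCPAP. PTTG1, the securin, fell more in BCPAP (-1.08, against -0.22). Of 20 heat shock proteins 7 were higher and 1 lower (1 and 3 with centring over all probes), HSPA1B among the 7 (1.76 in TPC1 and 0.61 in BCPAP). Of 23 genes of hypoxia and glycolysis, 18 fell in TPC1 and 11 in BCPAP, and 10 were lower and 2 higher in the difference, with a median of -0.26. Of 18 NRF2 targets 6 were higher and 7 lower (2 and 8 with centring over all probes), with HMOX1 and TXNRD1 on the first side and AKR1C3 on the second. Of 27 genes of NF-kB and inflammatory cytokines, 13 were higher and 7 lower (1 and 8 with centring over all probes), with CXCL8 and IL6 at opposite ends.

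For comparison, 13.1% of the 11935 genes tested were higher in the difference and 14.9% lower. The counts were 47 and 3349 with centring over all probes, and 3113 and 1010 over the probes above background. Of 27 genes of DNA replication, 2 were higher and 6 lower (0 and 12 with centring over all probes). Of 22 growth factor receptors and ligands 9 were higher and 5 lower (0 and 5 with centring over all probes). Collagens and matrix proteins fell in both lines, 12 of 16 in each, against 20.6% of all genes in TPC1 and 13.2% in BCPAP. With centring over all probes 10 fell in TPC1 and 0 in BCPAP, against 1887 and 5 of all 11935 genes. In the difference 6 of the 16 were higher and 7 lower. The fibroblast markers tested had a summed log2 signal of 9.25 and 9.22 with Y15 in TPC1, against 10.16 and 10.00 untreated, and of 8.43 and 8.50 with Y15 in BCPAP, against 8.45 and 8.47 untreated. PDGFRA was above background in no group, LUM in TPC1 and DCN in BCPAP alone, and PDGFRB on both arrays of untreated TPC1 alone. Their part in the matrix result was not tested. Among 16 integrins 2 were higher and 3 lower, near the shares over all genes (8 and 1 with centring over the probes above background). Of 24 genes of death receptors and the BCL2 family, 9 were higher and 4 lower (0 and 3 with centring over all probes), with BCL2L2, a survival factor, at 1.32 and 0.42 and TNFSF10, the death ligand TRAIL, at -1.85 and -0.87 and too dim in untreated BCPAP cells for the TPC1 fall. Of 23 genes of MAPK output, 7 were higher and 1 lower (0 and 5 with centring over all probes). Of 16 genes of cholesterol synthesis and uptake 1 was higher and 3 lower (0 and 8 with centring over all probes), and SC5D, a sterol desaturase, had 0.68 and -0.25. Of 14 replication-dependent histones 3 were higher and 2 lower (0 and 3 with centring over all probes, 6 and 0 with centring over the probes above background), and H2BC21 had 0.47 and -0.28.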

How the data were processed

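The deposited table gives a signal intensity and a detection p-value per bead-array probe, exported from GenomeStudio (version not given in the sources used here), and log2 values after quantile normalization. The methods name another, smaller beadchip than the 47323 rows of the table. The 12 rows without values were left out. Here the log2 of the intensities was taken and quantiles were equalised over 12 arrays, which gave the deposited log2 values to within 5e-09. Of 47311 probes, 30109 had 1 gene, 8 several and 17194 none in the platform annotation, and 30070 of those with 1 gene matched a RefSeq gene of GRCh38.p14 by gene ID. A gene was its brightest probe, kept if above background (detection p under 0.05) on both arrays of at least 1 of 4 groups. The contrasts were fitted with limma 3.58.1 (lmFit, eBayes, two-sided) in R 4.3.3 on 8 arrays, without a replicate block, and adjusted over 11935 genes. The fit was tested on simulated data. A bound ("at least") sets the brighter group against the floor of the dim group's arrays. Promoters came from RefSeq.

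Genes were named by size of the difference within each class (6 per opposite class, 4 per one-line class, 3 per same-way class), leaving out uncharacterised and small RNA genes and those with overlapping arrays, with the 2 most different members of each of 34 lists that had at least 4 called, and PTK2. Small RNA genes, IFIT1, IFI27, ISG15, PARP14, UBE2L6, CCN1, RRM2B, AEN, MDM2 and GDF15 were chosen after their values were seen. Members and lists were chosen with earlier results of these data known. The alternatives were other normalizations, filters, probes, thresholds and samples, a replicate block, and leaving out each array. The authors' methods used an unadjusted p under 0.05 and 1.2-fold.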

Additional observations from a re-analysis of the deposited data

Results flagged for a closer look

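The response to Y15 differed between TPC1 and BCPAP, by a test of the difference itself in limma, for 3352 genes. The rule of size picked 70 genes from among these, so their being called is no further result. PTK2, the other of the 71, was not called. The values here are the response of TPC1 minus that of BCPAP in log2 signal, from 2 arrays in each of 4 groups, with adjusted p under 0.05 for each.

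Of the genes that rose in TPC1 and fell in BCPAP, the difference was 3.02 for MARCHF4, 2.25 for NAV2, 1.86 for CCN2, 1.75 for ANKRD1, 1.71 for CFAP251, 1.67 for STOM, 1.43 for ADAMTS1, 1.37 for ITGA2, 1.05 for SPRED2, 0.93 for SC5D and for PSMD1, 0.90 for TNC and 0.75 for H2BC21. Of those that fell in TPC1 and rose in BCPAP, it was -2.58 for AIF1L, -1.91 for KRT80, -1.77 for IRF9, -1.72 for NDRG1, -1.71 for MAL2, -1.62 for AKR1C3 and -1.54 for ADM. The BCPAP movements of AIF1L, MAL2, ANKRD1 and STOM carry the limits given above.

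Of the genes that rose in TPC1 alone, it was 2.24 for SPOCD1, 2.03 for HBEGF, 1.90 for KLRC1, 1.73 for NAV3, 1.07 for PSMB7 and 0.76 for H2BC12. Of those that fell in TPC1 alone, it was -2.83 for KCNJ16, -2.55 for CEBPD, -2.41 for IGFBP3, -2.34 for SLC17A3, -2.15 for FLG, -2.01 for SCD, -1.65 for ACSS2, -1.25 for JUP, -1.01 for ITGB3, -0.68 for MCM4, -0.59 for INSIG1, -0.55 for HSPA5 and -0.48 for GINS2. KCNJ16, CEBPD, IGFBP3, SLC17A3, FLG, SCD and ITGB3 were too dim in BCPAP for the fall seen in TPC1.

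Of the genes that rose in BCPAP alone, it was -2.35 for MX1, -2.23 for SPRR2D, -2.11 for SUN3, -1.79 for OAS2, -1.61 for IL6, -1.60 for SLC7A5 and -1.50 for MMP3. Of those that fell in BCPAP alone, it was 1.68 for RGS4, 1.57 for SFRP1, 1.54 for LRRC17, 1.41 for CPA4, 0.57 for CALR and 0.54 for FERMT2. SFRP1, LRRC17 and CPA4 were too dim in TPC1 for the fall seen in BCPAP.

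Of the genes that moved the same way by a larger amount in TPC1, it was 2.88 for CXCL8, 2.83 for HMOX1, 2.10 for HSPA6, -2.04 for VCAN, 1.99 for TXNRD1, 1.79 for LCP1, 1.60 for CDKN1A, 1.45 for GADD45A, -1.43 for TNS3, 1.28 for FOSB, 1.15 for HSPA1B, -0.98 for TNFSF10, 0.90 for BCL2L2 and -0.76 for TOP2A. Of those that moved by a larger amount in BCPAP, it was -1.58 for DDIT4, -1.20 for IL1RL1, -1.07 for ALOX5AP and 0.86 for PTTG1.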

How the results depend on the processing

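With 2 arrays a group the calls depend on few values, and the scaling moved them most. Median centring over all probes gave 47 genes higher and 3349 lower in TPC1, 43 opposite movers (0 higher and 43 lower in TPC1), 364 genes moved in BCPAP alone, 2071 calls in TPC1 and 591 in BCPAP. Centring over the probes above background gave 3113 higher, 1010 lower and 69 opposite movers lower in TPC1, and centring over the genes tested, added after seeing the data, gave 2617 higher. With neqc there were 158 opposite movers, 64 of them higher in TPC1. With all 12 arrays in the fit there were 2168 called differences (991 higher and 1177 lower), 144 opposite movers (67 and 77), 432 genes in BCPAP alone and 2032 calls in BCPAP. The cause of these shifts was not tested.

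Leaving out 1 array gave 2214 to 3965 called differences, 1022 to 1788 higher and 1171 to 2177 lower, 140 to 389 opposite movers (61 to 182 higher and 79 to 207 lower in TPC1), 445 to 985 genes in BCPAP alone and 2089 to 3670 calls in BCPAP. Untreated TPC1 replicates 1 and 2 moved the called differences by over 1.5 times, to 2214 without the first and 2227 without the second. Opposite movers numbered 162 and 169 without Y15 TPC1 replicates 1 and 2, 146 and 140 without untreated TPC1 replicates 1 and 2, and 177 without Y15 BCPAP replicate 1.

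With centring over all probes the difference took the other sign for CALR (-0.41), FERMT2 (-0.47), H2BC12 (-0.30), PTK2 (-0.78), SC5D (-0.064), PSMD1 (-0.082), TNC (-0.095), PTTG1 (-0.084) and BCL2L2 (-0.13), and with centring over the genes tested for PTK2 (-0.091). With centring over the probes above background 5 of the 71 genes chosen by rule lost their call, with neqc 1 and with 12 arrays 8.

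Nothing states whether the replicate numbers pair the arrays. Deviations of same-numbered arrays correlated at 0.197 in TPC1 and -0.185 in BCPAP, which does not settle it. With a replicate block within each line 3003 differences were called, 224 of them opposite movers. A crossed pairing in BCPAP, added after seeing the data, called 4007, with 383 opposite movers.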

Other observations

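The K1 line was outside the fit and also had 2 arrays with Y15 and 2 untreated. Its median response, in log2 signal, was 0.12 over the genes that rose in TPC1 and fell in BCPAP and -0.12 over those that fell in TPC1 and rose in BCPAP. It was 0.20 over the genes that rose in TPC1 alone and -0.16 over those that fell in TPC1 alone, and 0.04 and -0.02 over those that rose or fell in BCPAP alone, against 0.01 over all genes tested. CCN2 had 11.23 and 11.73 with Y15 in K1, against 12.09 and 11.97 untreated. These values are descriptions of 4 arrays, and K1 was normalized together with the other lines.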
